A study of Homo sapiens with 36 samples.

Results

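The genes described here are 44 targets and partners of ATF4, the transcription factor of the integrated stress response. They are the listed response genes with genes of amino acid transport, serine and one-carbon synthesis and cytosolic tRNA ligases, taken by symbol from the 57500 gene IDs of the count table, and all 44 were found. Their mRNA was counted in FLO1 and OE33, 2 human esophageal adenocarcinoma lines, by sequencing of polyA RNA. The medium was RPMI1640 for OE33 and DMEM for FLO1, which means that line and medium cannot be told apart. Each line had been stably transduced with shAPE1#1 or shAPE1#3, shRNAs against the mRNA of APE1 (gene APEX1), or with a non-targeting shControl. APE1 cuts DNA at abasic sites during base excision repair and also acts on the redox state of transcription factors. Cells of each construct were either exposed for 20 min to bile salts at 200 µM in medium of pH 4 (ABS, acidic bile salts) and given 6 h to recover, or left unexposed, which makes 12 groups of 3 libraries. The question addressed is how loss of APE1 alters gene expression in these tumor cells with and without such an exposure, which imitates reflux.

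In the integrated stress response, kinases that sense amino acid shortage, misfolded protein in the endoplasmic reticulum, heme shortage or double-stranded RNA phosphorylate the translation factor eIF2. Most translation then slows, while the ATF4 mRNA, whose short upstream reading frames normally hold ribosomes back, is translated better. ATF4 protein binds DNA as a dimer with C/EBP proteins and raises genes that import and make amino acids, charge tRNAs and, through DDIT3 and its partners, end the response or the cell. ATF4 mRNA is therefore only a partial readout of ATF4 activity, which these libraries do not measure as protein.

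APEX1 was lowered in every knockdown group. It stood at 25.5 ± 0.258 CPM with shAPE1#1 and 37.4 ± 1.14 CPM with shAPE1#3, against 200.4 ± 3.74 CPM with shControl in unexposed FLO1 (mean ± SD, n = 3; CPM, counts per 1e6 counts, scaled within a line). In unexposed OE33 it stood at 23.9 ± 2.099 and 22.03 ± 0.559 CPM, against 194 ± 5.002 CPM. Libraries held 20.7 M to 40.7 M counts (M, 1e6). The 6 epithelial markers summed to 2381 to 4696 CPM in FLO1 and 17773 to 24219 CPM in OE33. The 6 immune and 5 endothelial markers summed to at most 7.42 and 1.7 CPM. The 6 fibroblast markers summed to 37.9 CPM or less, mostly COL1A1, in FLO1. In OE33 their sum was at most 5.96 CPM except in shControl after ABS, replicate 3, where it was 20.8 CPM.

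ATF4 and C/EBP proteins together read a short composite DNA element, the usual mark of direct targets. Promoter windows, from 250 bases before to 50 bases after the start of the gene in RefSeq (build GRCh38.p14), were at hand for 35 of the 44 genes, and were searched on both strands (in any window of a gene) for the core of that element, TGATGNAA. It stood in 14 of the 35 (40%) and in 1217 of the 27305 genes with a window (4.46%). The longer form TGATGCAAT stood in the window of TARS1 (1 of 35, 2.86%), against 80 of all genes (0.293%). Among genes outside the list that were expressed enough to test, 2.58% in FLO1 and 2.56% in OE33 held TGATGNAA. The sequences around the match are given for 7 genes with the core that rose with ABS in OE33 shControl cells, and for 3 that carry the core and did not pass that test (CEBPG, TARS1 and IARS1). They read 5′ to 3′ on the strand that holds the core, which is in capitals.
CHAC1: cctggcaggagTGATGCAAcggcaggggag
ASNS: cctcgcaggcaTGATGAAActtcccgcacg
SLC3A2: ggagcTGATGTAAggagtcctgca
SLC1A5: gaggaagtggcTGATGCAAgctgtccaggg
AARS1: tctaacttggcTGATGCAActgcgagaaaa
MARS1: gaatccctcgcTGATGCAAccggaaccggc
CARS1: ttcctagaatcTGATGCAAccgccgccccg
CEBPG: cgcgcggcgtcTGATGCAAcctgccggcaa
TARS1: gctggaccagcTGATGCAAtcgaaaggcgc
IARS1: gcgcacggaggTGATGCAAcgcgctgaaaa

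Of the 14 matches, 10 read TGATGCAA, 3 read TGATGAAA (ASNS, SLC7A1 and GARS1) and 1 reads TGATGTAA (SLC3A2). The CHAC1 stretch is chr15:40953251-40953280 on the minus strand, 209 bases before the start, the ASNS stretch is chr7:97872458-97872487 on the minus strand, 68 bases before the start, and the AARS1 stretch is chr16:70289675-70289704 on the plus strand, 187 bases before the start. The CARS1 stretch is chr11:3057407-3057436 on the plus strand and the MARS1 stretch chr12:57488053-57488082 on the minus strand. Both cores span the start, with the first base along the gene 2 and 4 bases before it. The remaining stretches are SLC3A2 chr11:62881725-62881748 (minus strand), SLC1A5 chr19:46784893-46784922 (minus strand), CEBPG chr19:33374060-33374089 (plus strand), TARS1 chr5:33440956-33440985 (minus strand) and IARS1 chr9:92293692-92293721 (plus strand). The other genes with the core were SLC7A1, SLC1A4, GARS1 and NARS1, so that 7 of the 14 belong to the tRNA ligases. A match is a description of letters and does not show binding.

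**Figure D1:**
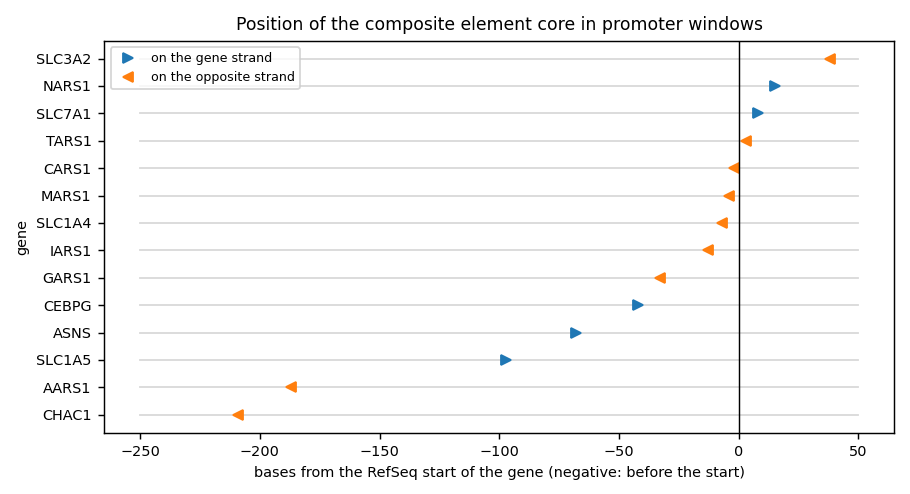
Position of the first base, along the strand of the gene, of the TGATGNAA core (x axis, bases from the RefSeq start, negative before it) in the promoter windows of the 14 genes that hold it (y axis). Arrows give the strand. Of the 14 matches, 10 lie within 50 bases of the start, 5 are on the strand of the gene and 9 on the opposite strand.

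In unexposed shControl cells ATF4 mRNA had the highest level per length of the 44 genes in both lines, at 106.3 ± 4.08 CPM per kb of exon in OE33 and 240.0 ± 7.53 CPM per kb in FLO1 (SD, n = 3). In FLO1 the next were SLC7A5 (204 ± 20.9 CPM per kb), PSAT1 (194.5 ± 6.92) and EIF4EBP1 (160.3 ± 10.8), of which SLC7A5 and PSAT1 differ by less than the SD of SLC7A5. In OE33 the next were EIF4EBP1 (94.1 ± 9.08 CPM per kb) and SLC7A5 (93.4 ± 1.93), which also lie within an SD of each other. At the low end VLDLR, SLC1A4, ALDH1L2 and NUPR1 were among the lowest 5 members per length in both lines, joined by SLC7A11 in FLO1 and STC2 in OE33. STC2, a secreted glycoprotein, and NUPR1, a small stress-induced chromatin protein, had 0.411 CPM or less in every OE33 library and were not tested there, while STC2 had 204 to 206 CPM in unexposed FLO1 shControl. The cystine carrier SLC7A11 was the lowest member per length in FLO1, at 6.18 to 7.95 CPM, while OE33 held 107 to 129.7 CPM. The neutral amino acid carrier SLC1A4 had 0.969 to 1.59 CPM in OE33 and 69.6 to 77.7 CPM in FLO1.

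Many of the 44 listed mRNAs were lower with shAPE1#1 than with shControl in unexposed FLO1 cells. Of the 44 genes 17 were lower and 1 was higher than in shControl (edgeR quasi-likelihood test over all genes, adjusted p under 0.05 with Benjamini-Hochberg), while 6.74% of all genes tested were called, 4.52% higher and 2.22% lower. The median log2 change of the 44 was -0.25, against -0.016 over all genes, and 42 of 44 estimates were negative. With shAPE1#3 2 of the 44 were called, both lower, against 0.788% of all genes (0.622% lower), and the median was -0.01. Both shRNAs were set against the same shControl libraries. APEX1 itself was 0.55 higher on the log2 scale with shAPE1#3 than with shAPE1#1. In bulk RNA, fewer cells with a transcript and less transcript per cell cannot be told apart. Leaving out shAPE1#1 replicate 3 brought the shAPE1#1 count to 11. The shAPE1#3 count was 1 without shControl replicate 1 or 3 or any one shAPE1#3 library, and 6 without shControl replicate 2 after ABS, which shares the fit. A fit of only the groups compared called 5 with shAPE1#3. The epithelial markers summed to 3754 to 3973 CPM with shAPE1#1, 2539 to 2615 CPM with shAPE1#3 and 2458 to 2833 CPM with shControl, and their part in the shAPE1#1 result was not tested.

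Among the transcription factors, ATF4 itself (ENSG00000128272; chromosome 22, 39519695 to 39522685, plus strand, GRCh38) was lower with shAPE1#1. The unexposed libraries had 402, 386 and 381 CPM with shAPE1#1, against 625, 593 and 592 CPM with shControl, and the groups did not overlap. The log2 change was -0.63 ± 0.09 (adjusted p = 9.47e-05) by edgeR with Benjamini-Hochberg adjustment. With shAPE1#3 ATF4 had 524, 499 and 559.9 CPM, below each shControl library, and the change of -0.19 ± 0.09 (adjusted p = 0.509) did not pass in edgeR's test. DDIT3 (CHOP, which drives cell death in prolonged stress) changed by -0.46 and CEBPG, a dimer partner of ATF4, by -0.41, both called lower with shAPE1#1. ATF5 and CEBPB were not called with either shRNA.

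NUPR1 (ENSG00000176046; chromosome 16, 28532708 to 28539174, minus strand) went opposite ways with the 2 shRNAs. It had 20.2, 22.1 and 21.6 CPM with shAPE1#1 and 6.75, 7.14 and 6.35 CPM with shAPE1#3, against 12.3, 9.702 and 10.9 CPM with shControl. No library of one group overlapped another group: all 3 shAPE1#1 libraries were above and all 3 shAPE1#3 libraries below the shControl libraries. The changes were 0.96 ± 0.12 (adjusted p = 1.27e-05) with shAPE1#1 and -0.70 ± 0.12 (adjusted p = 0.00382) with shAPE1#3 by edgeR with Benjamini-Hochberg adjustment.

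Of the 8 effector and feedback genes, 4 were lower with shAPE1#1. CHAC1 (ENSG00000128965; chromosome 15, 40952962 to 40956519, plus strand), which degrades glutathione, was called lower with each shRNA. It had 19.6, 18.98 and 18.7 CPM with shAPE1#1 and 27.2, 27.2 and 29.1 CPM with shAPE1#3, against 37.9, 36.8 and 47.1 CPM with shControl. Every knockdown library was below every shControl library. The changes were -1.09 ± 0.12 (adjusted p = 4.81e-06) and -0.55 ± 0.12 (adjusted p = 0.029) by edgeR with Benjamini-Hochberg adjustment. VLDLR, a lipoprotein receptor, had 25.9, 25.9 and 26.2 CPM with shAPE1#1, against 45.8, 45.7 and 43.3 CPM with shControl, a change of -0.79 ± 0.08 (adjusted p = 1.25e-06) by edgeR, while with shAPE1#3 its 45.6, 48.2 and 47.5 CPM overlapped shControl. TRIB3, a pseudokinase that restrains ATF4 and AKT, changed by -0.54 and SESN2, a leucine sensor that curbs mTORC1, by -0.46, both called with shAPE1#1. DDIT4, another curb on mTORC1, PPP1R15A, the stress-induced subunit that dephosphorylates eIF2, STC2 and EIF4EBP1, a translation repressor, were not called.

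Of the 6 genes of the serine pathway, 5 were called lower with shAPE1#1. PHGDH, PSAT1 and PSPH make serine from a glycolytic intermediate, and SHMT2 and MTHFD2 carry its carbon into mitochondrial folate. PHGDH (ENSG00000092621; chromosome 1, 119648411 to 119744226, plus strand) had 138, 131 and 137 CPM with shAPE1#1, against 203, 189 and 213 CPM with shControl, which did not overlap, a change of -0.58 ± 0.10 (adjusted p = 0.00109) by edgeR with Benjamini-Hochberg adjustment. PSAT1 changed by -0.52, SHMT2 by -0.38, MTHFD2 by -0.34 and PSPH, which has pseudogene copies that could share its reads, by -0.30. The sixth, ALDH1L2, which releases carbon from mitochondrial folate, changed by -0.07 and was not called. With shAPE1#3 none of the 6 was called by edgeR (0 at an unadjusted p under 0.05), and PHGDH had 222, 215 and 216 CPM.

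In asparagine and proline synthesis with PCK2, 2 of 4 genes were lower with shAPE1#1. ASNS (asparagine synthetase; ENSG00000070669; chromosome 7, 97852118 to 97872542, minus strand), whose promoter is the textbook case of an ATF4 site, had 125, 120.3 and 121 CPM with shAPE1#1 and 182, 172 and 189.5 CPM with shAPE1#3, against 183, 191 and 171 CPM with shControl. The shAPE1#1 libraries lay below all others, and the shAPE1#3 libraries overlapped shControl. The change with shAPE1#1 was -0.57 ± 0.09 (adjusted p = 0.000293) by edgeR with Benjamini-Hochberg adjustment. PCK2, the mitochondrial enzyme that makes phosphoenolpyruvate, changed by -0.53. Of the proline enzymes, ALDH18A1 changed by -0.15 and PYCR1 by -0.05, neither called. Of 7 transporters, SLC1A4 (-0.55) and SLC3A2 (-0.37), the heavy chain that SLC7A5 and SLC7A11 need at the membrane, were called lower.

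The tRNA ligases gave few calls. Of the 12 ligases and XPOT, which carries tRNAs out of the nucleus, 1 was called with shAPE1#1, although 12 of 13 estimates were negative, with a median of -0.18. That gene was CARS1, the cysteine ligase, with 139, 133 and 138 CPM with shAPE1#1, against 175, 175 and 174 CPM with shControl, and a change of -0.35 ± 0.07 (adjusted p = 0.00206) by edgeR with Benjamini-Hochberg adjustment. AARS1, the alanine ligase, changed by 0.03.

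**Figure D2:**
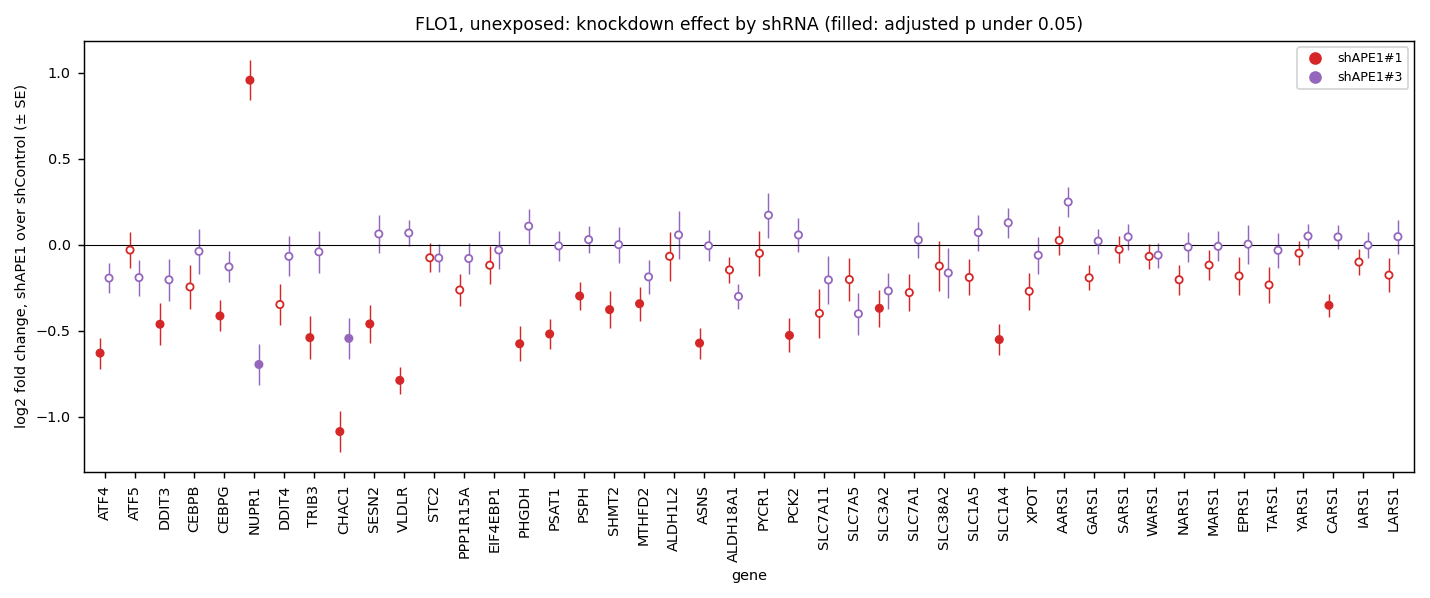
Log2 fold change of each of the 44 genes in unexposed FLO1 cells, shAPE1 over shControl (y axis, ± SE), for shAPE1#1 (red) and shAPE1#3 (purple), with genes on the x axis; filled points passed an adjusted p under 0.05. The red points lie below 0 for 42 of 44 genes and 17 of those are filled, while 2 purple points are filled.

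Knockdown was also compared with shControl among the FLO1 cells that had received ABS. With shAPE1#1 18 of the 44 genes were lower and 1 higher than in shControl, against 16.6% of all genes called (8.26% higher and 8.31% lower). With shAPE1#3 3 were lower, against 0.783% of all genes (0.658% lower). CHAC1 had 23.1, 19.4 and 17.9 CPM with shAPE1#1 and 27.2, 30.7 and 24.6 CPM with shAPE1#3, against 36.1, 45.9 and 36.95 CPM with shControl. All knockdown libraries lay below the shControl libraries, with changes of -0.98 ± 0.12 (adjusted p = 1.32e-05) and -0.53 ± 0.12 (adjusted p = 0.0349) by edgeR with Benjamini-Hochberg adjustment. ALDH18A1, which starts proline synthesis, had 93.8, 88.5 and 92.4 CPM and 84.97, 80.2 and 83.03 CPM, against 101, 113 and 107 CPM, with changes of -0.22 ± 0.07 (adjusted p = 0.0479) and -0.37 ± 0.08 (adjusted p = 0.0178) by the same edgeR test. TRIB3 had 41.8, 40.2 and 38.4 CPM with shAPE1#1, against 61.9, 98.02 and 68.1 CPM with shControl, a change of -0.92 ± 0.12 (adjusted p = 3.73e-05) by edgeR. NUPR1 had 25.2, 21.2 and 21.3 CPM with shAPE1#1 and 5.301, 6.42 and 5.33 CPM with shAPE1#3, against 9.35, 7.85 and 7.84 CPM with shControl, and its changes were again of opposite sign (1.43 and -0.56). ATF4 (-0.36), DDIT3 (-0.77), PPP1R15A (-0.44), SESN2 (-0.65) and PCK2 (-0.68) were also called lower with shAPE1#1. Epithelial markers summed to 4250 to 4696 CPM with shAPE1#1, 2697 to 2771 CPM with shAPE1#3 and 2381 to 3156 CPM with shControl after ABS; their part was not tested. Without shControl replicate 3 after ABS, or without shAPE1#3 replicate 1 or 3 after ABS, none of the 44 was called with shAPE1#3 after ABS. The count was 1 without any one unexposed shAPE1#1 library or without unexposed shAPE1#3 replicate 1, and 6 without shControl replicate 2 after ABS. In a fit of only the groups compared, 8 genes were called with shAPE1#1 after ABS (CHAC1, TRIB3, VLDLR, DDIT3, PCK2, PHGDH, SESN2 and NUPR1), and the ATF4, PPP1R15A and ALDH18A1 calls ended. With shAPE1#3 0 were called in that fit.

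The shRNAs themselves differed in FLO1. Set against unexposed shAPE1#1 cells, shAPE1#3 cells had 14 of the 44 genes higher and 1 lower, while 12.2% of all genes were called (4.66% higher and 7.52% lower). VLDLR had 45.6, 48.2 and 47.5 CPM with shAPE1#3, against 25.9, 25.9 and 26.2 CPM with shAPE1#1, and PHGDH had 222, 215 and 216 CPM, against 138, 131 and 137 CPM. SLC1A4 had 82.1, 81.7 and 76.6 CPM with shAPE1#3, against 51.1, 49.2 and 49.8 CPM with shAPE1#1. None of these groups overlapped, and the changes were 0.86 ± 0.08 (adjusted p = 1.37e-07) for VLDLR, 0.68 ± 0.10 (adjusted p = 9.18e-05) for PHGDH and 0.68 ± 0.09 (adjusted p = 1.53e-05) for SLC1A4 by edgeR with Benjamini-Hochberg adjustment. NUPR1 was the gene lower with shAPE1#3, at -1.65 ± 0.12 (adjusted p = 5.48e-09) by edgeR. ASNS (0.57), PCK2 (0.58), PSAT1 (0.51), CHAC1 (0.54) and ATF4 (0.44) were higher with shAPE1#3. Without shControl replicate 2 after ABS, which enters through the shared estimate of spread, 24 genes were called, and 34 in a fit of only these groups.

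Acidic bile salts moved few of these genes in FLO1. In shControl cells 3 of 44 rose and 1 fell, against 3.00% of all genes called (2.48% higher and 0.516% lower). With shAPE1#1 2 rose and 2 fell, against 5.01% of all genes (2.94% higher and 2.07% lower). With shAPE1#3 2 rose and 1 fell, against 1.81% (1.53% higher and 0.285% lower). The gene called in each of the 3 constructs was PPP1R15A (ENSG00000087074; chromosome 19, 48872392 to 48876057, plus strand). After ABS and in unexposed cells it had 78.9, 66.2 and 65.02, against 48.4, 45.8 and 47.1 CPM with shAPE1#1, and 78.4, 81.5 and 77.5, against 52.4, 51.9 and 56.2 CPM with shAPE1#3. In shControl cells it had 90.9, 107 and 87.6 CPM after ABS, against 53.3, 56.5 and 59.7 CPM. In each construct the exposed libraries lay above the unexposed ones, with changes of 0.57 ± 0.09 (adjusted p = 0.0005), 0.56 ± 0.09 (adjusted p = 0.000898) and 0.75 ± 0.09 (adjusted p = 1.88e-05) by edgeR with Benjamini-Hochberg adjustment.

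DDIT3 (ENSG00000175197; chromosome 12, 57516588 to 57521737, minus strand) had 57.2, 42.5 and 50.6 CPM after ABS, against 32.5, 32.5 and 29.6 CPM unexposed, in shControl cells, and 39.01, 47.1 and 44.7 CPM, against 28.8, 25.7 and 27.6 CPM, with shAPE1#3. The groups did not overlap in either construct, and the changes were 0.67 ± 0.12 (adjusted p = 0.00203) and 0.67 ± 0.12 (adjusted p = 0.00273) by edgeR with Benjamini-Hochberg adjustment. With shAPE1#1 it had 34.6, 29.8 and 23.9 CPM, against 22.2, 24 and 22.4 CPM, and the change of 0.36 ± 0.12 (adjusted p = 0.0977) by edgeR did not pass. DDIT3 overlaps MARS1 and MBD6 on the opposite strand, and the strand setting of the counting is not given in the sources used here. SESN2 had 93.01, 120.4 and 92.8 CPM after ABS, against 62.7, 71.9 and 83.5 CPM unexposed, in shControl cells (0.49 ± 0.11, adjusted p = 0.0127, edgeR). DDIT4 had 125, 189 and 138 CPM after ABS, against 233, 184 and 219 CPM unexposed, in shControl cells, where the groups overlapped, and 136, 143 and 140.2 CPM, against 204, 193 and 209.7 CPM, with shAPE1#3, where they did not. Its changes were -0.49 ± 0.12 (adjusted p = 0.0204) and -0.53 ± 0.12 (adjusted p = 0.0164) by edgeR with Benjamini-Hochberg adjustment.

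With shAPE1#1 CEBPB, a C/EBP family dimer partner, had 138, 121 and 121 CPM after ABS, against 94.98, 87.8 and 84.3 CPM unexposed, ATF5 had 154, 146 and 146 CPM, against 193, 188 and 194 CPM, and VLDLR had 21.6, 21.5 and 20.1 CPM, against 25.9, 25.9 and 26.2 CPM. CEBPB rose by 0.50 ± 0.13, while ATF5 and VLDLR fell, with log2 changes of -0.37 ± 0.10 and -0.30 ± 0.08. None of the 30 genes of serine, asparagine and proline synthesis, transport and tRNA charging was called in any FLO1 construct in the fit of all 18 libraries. At an unadjusted p under 0.05, 3 of them passed in shControl, 4 with shAPE1#1 and 1 with shAPE1#3. DESeq2 called PSAT1 (-0.27) and IARS1 (-0.20) lower in shControl and none of the 30 with either shRNA. A fit of only the groups compared called 12 of the 44 with shAPE1#1, among them PCK2 (-0.23), PYCR1 (-0.22) and MARS1 (-0.18), 6 with shAPE1#3, among them SLC3A2 (0.33), and 1, PPP1R15A, in shControl cells, where the DDIT3, SESN2 and DDIT4 calls ended. ATF4 mRNA stood at 469 ± 46.2, against 389.6 ± 11.2 CPM with shAPE1#1, 537 ± 57.6, against 527 ± 30.8 CPM with shAPE1#3, and 601 ± 23.6, against 603 ± 18.9 CPM in shControl cells. Leaving out FLO1 shControl replicate 1 brought the count in shControl cells to 2, and leaving out the first of the exposed shControl libraries brought it to 7. The shAPE1#1 count was 10 without shControl replicate 2 after ABS 1 without any one of the 3 unexposed shAPE1#1 libraries and 2 without exposed shAPE1#1 replicate 1 or 2, and the shAPE1#3 count was 5 without that shControl library.

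Genes of endoplasmic reticulum stress were followed beside the 44. Of 7 (HSPA5, HSP90B1, HERPUD1, XBP1, DNAJB9, SDF2L1 and ATF3), 6 rose with ABS in each FLO1 construct, with medians of 0.83 with shAPE1#1, 0.97 with shAPE1#3 and 1.05 in shControl. Over all genes, 2.94%, 1.53% and 2.48% were called higher in these comparisons. Of the 13 genes for eIF2 kinases, eIF2, its phosphatases and eIF2B, EIF2AK3, which encodes the endoplasmic reticulum kinase PERK, rose by 1.00 ± 0.10, 0.81 ± 0.10 and 0.96 ± 0.10. PPP1R15B, the constitutive counterpart of PPP1R15A, rose by 0.50 ± 0.10 with shAPE1#1 and 0.42 ± 0.10 in shControl cells (all 5 called by edgeR). In OE33 those called of the 7 stress genes were HSPA5, HSP90B1 and, except with shAPE1#1, ATF3. Of the 13 genes of the eIF2 list, EIF2B3 was called lower after ABS in OE33 shControl cells (-0.44 ± 0.08) and with shAPE1#1 (-0.30 ± 0.08) by edgeR. The chaperone HSPA5 changed by 1.07 ± 0.06, 0.86 ± 0.06 and 1.06 ± 0.06 in OE33, and by 0.77 ± 0.07, 0.97 ± 0.07 and 1.04 ± 0.07 in FLO1 (shAPE1#1, shAPE1#3 and shControl). HSP90B1, another chaperone, rose by 0.46 ± 0.07, 0.37 ± 0.07 and 0.37 ± 0.07 in OE33, and the transcription factor ATF3 by 0.49 ± 0.13 with shAPE1#3 and 1.14 ± 0.14 in shControl cells. DNAJB9 (-0.36), HERPUD1 (-0.02), XBP1 (-0.06) and SDF2L1 (0.20) were not called in OE33 shControl cells.

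In OE33 shControl cells ABS raised genes of each role but the serine pathway. Of 42 genes tested, 13 rose and 2 fell, against 8.40% of all genes called (5.89% higher and 2.51% lower), with a median of 0.12, against -0.005 over all genes. The rises took in ATF4, 3 effectors, ASNS, 3 of 7 transporters and 5 of 12 ligases. None of the 6 serine pathway genes was called (1 at an unadjusted p under 0.05). With shAPE1#1 2 rose and 2 fell, against 4.73% of all genes (3.02% higher and 1.71% lower). With shAPE1#3 1 rose and 1 fell, against 2.26% (1.76% higher and 0.502% lower).

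ATF4 had 412, 369 and 361 CPM after ABS, against 276, 270.1 and 256 CPM unexposed, in OE33 shControl cells. All exposed libraries lay above the unexposed ones, and the change was 0.51 ± 0.07 (adjusted p = 2.96e-05) by edgeR with Benjamini-Hochberg adjustment, or 1.43-fold. With shAPE1#1 it had 261, 262 and 293 CPM after ABS, against 228, 257 and 228 CPM unexposed, and with shAPE1#3 258, 285 and 266 CPM, against 212, 219.9 and 204 CPM. The changes were 0.20 ± 0.07 (adjusted p = 0.103) and 0.35 ± 0.07 (adjusted p = 0.00569) by edgeR with Benjamini-Hochberg adjustment, of which the second passed. Without unexposed shAPE1#3 replicate 3, 1 gene was called with shAPE1#3.

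CHAC1 had 7.74, 6.68 and 7.95 CPM after ABS, against 6.41, 4.78 and 4.88 CPM unexposed, in shControl cells, without overlap (0.48 ± 0.13, adjusted p = 0.0188, edgeR). PPP1R15A had 118, 132 and 118 CPM after ABS, against 96.04, 90.6 and 89.5 CPM (0.41 ± 0.08, adjusted p = 0.00103, edgeR). AARS1 (ENSG00000090861; chromosome 16, 70252295 to 70289543, minus strand) had 176, 163 and 164 CPM after ABS, against 126, 121 and 117 CPM (0.47 ± 0.07, adjusted p = 7.61e-05, edgeR). The other risers in shControl cells were CARS1 (0.41), SESN2 (0.39), SLC3A2 (0.38), the methionine ligase MARS1 (0.34), the leucine carrier SLC7A5 (0.34), the glutamine carrier SLC1A5 (0.32), ASNS (0.31), the tryptophan ligase WARS1 (0.28) and the serine ligase SARS1 (0.22). In none of the 13 did the exposed and unexposed libraries overlap, which is largely set by their having passed this same test. Some genes that were not called, such as ATF5 (0.15) and SHMT2 (0.10), did not overlap either. The change of ATF4 was the largest of the 13. Without replicate 3 of shControl after ABS, the library with the highest fibroblast marker sum, 10 genes rose and 1 fell.

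AARS1 and CARS1 were the risers with shAPE1#1. AARS1 had 157, 138 and 153 CPM after ABS, against 122, 115 and 106 CPM unexposed, and CARS1 had 65.7, 63.2 and 60.2 CPM, against 49.1, 52.4 and 47.8 CPM, with changes of 0.39 ± 0.07 (adjusted p = 0.00148) and 0.34 ± 0.07 (adjusted p = 0.00395) by edgeR with Benjamini-Hochberg adjustment. The groups did not overlap in either gene. In a fit of only the groups compared, 0 genes were called for ABS with shAPE1#1 in OE33, so these calls and those of DDIT3 and DDIT4 with shAPE1#1 ended there, and 4 were called with shAPE1#3, ATF4 and DDIT3 among them.

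DDIT3 went the other way in OE33. It had 10.5, 8.88 and 10.4 CPM after ABS, against 13.96, 16.7 and 15.4 CPM unexposed, with shAPE1#1, and 9.87, 9.58 and 10.2 CPM, against 13.8, 15.1 and 14.7 CPM, with shAPE1#3. In shControl cells it had 10.6, 9.21 and 9.58 CPM after ABS, against 14.5, 12.99 and 11.2 CPM. Exposed libraries were below unexposed ones in each construct, with changes of -0.63 ± 0.11 (adjusted p = 0.000965), -0.56 ± 0.11 (adjusted p = 0.00417) and -0.39 ± 0.11 (adjusted p = 0.0226) by edgeR with Benjamini-Hochberg adjustment. DDIT4 had 26.2, 28.1 and 33.7 CPM after ABS, against 36.5, 44.3 and 36.4 CPM unexposed, with shAPE1#1 and fell there (-0.41 ± 0.10) and in shControl cells (-0.41 ± 0.10), while with shAPE1#3 the change of -0.25 ± 0.10 was not called.

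The 13 genes that rose in OE33 shControl cells had a median log2 change of 0.09 with shAPE1#1 and 0.13 with shAPE1#3, against 0.38 in shControl cells. Since these genes were picked for their rise in shControl cells, a smaller value elsewhere is partly set by the choice. The difference itself was tested as an interaction of knockdown and ABS over all genes. By edgeR 0 of 42 genes passed with either shRNA, against 0 of 15540 genes with shAPE1#1 and 0.0129% with shAPE1#3. By DESeq2 0 passed with shAPE1#1 and 1, ASNS, with shAPE1#3 (-0.40, adjusted p = 0.0117). At an unadjusted p under 0.05, 9 of 42 genes passed with shAPE1#1 and 7 with shAPE1#3, against 3.58% and 3.97% of all genes, and each of these had a negative estimate. Both interactions use the same shControl libraries. The lowest adjusted p belonged to ASNS with each shRNA, with interactions of -0.33 ± 0.09 (adjusted p = 0.846) and -0.40 ± 0.09 (adjusted p = 0.294) by edgeR. In the libraries ASNS had 47.8, 45.8 and 44.6 CPM after ABS, against 45.02, 47.7 and 46.9 CPM with shAPE1#1, 42.2, 44.9 and 43.1, against 45.1, 48.1 and 45.3 CPM with shAPE1#3, and 55.7, 54.5 and 52.05, against 44.8, 42.1 and 43.6 CPM in shControl cells. The exposed shControl libraries were the highest of the 18. ATF4 had interactions of -0.32 ± 0.10 and -0.16 ± 0.10, SLC3A2 of -0.29 ± 0.10 and -0.29 ± 0.10, and MARS1 of -0.25 ± 0.10 and -0.22 ± 0.10. In FLO1 0 of 44 genes passed by edgeR or DESeq2 with either shRNA, against 0 of all genes by edgeR. There 3 genes with shAPE1#1 (NUPR1, ATF4 and TRIB3) and 0 with shAPE1#3 had an unadjusted p under 0.05, against 9.57% and 2.02% of all genes. The lowest adjusted p belonged to NUPR1 with shAPE1#1 (0.47 ± 0.16, adjusted p = 0.507, edgeR) and SESN2 with shAPE1#3 (-0.25 ± 0.15, adjusted p = 1, edgeR).

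**Figure D3:**
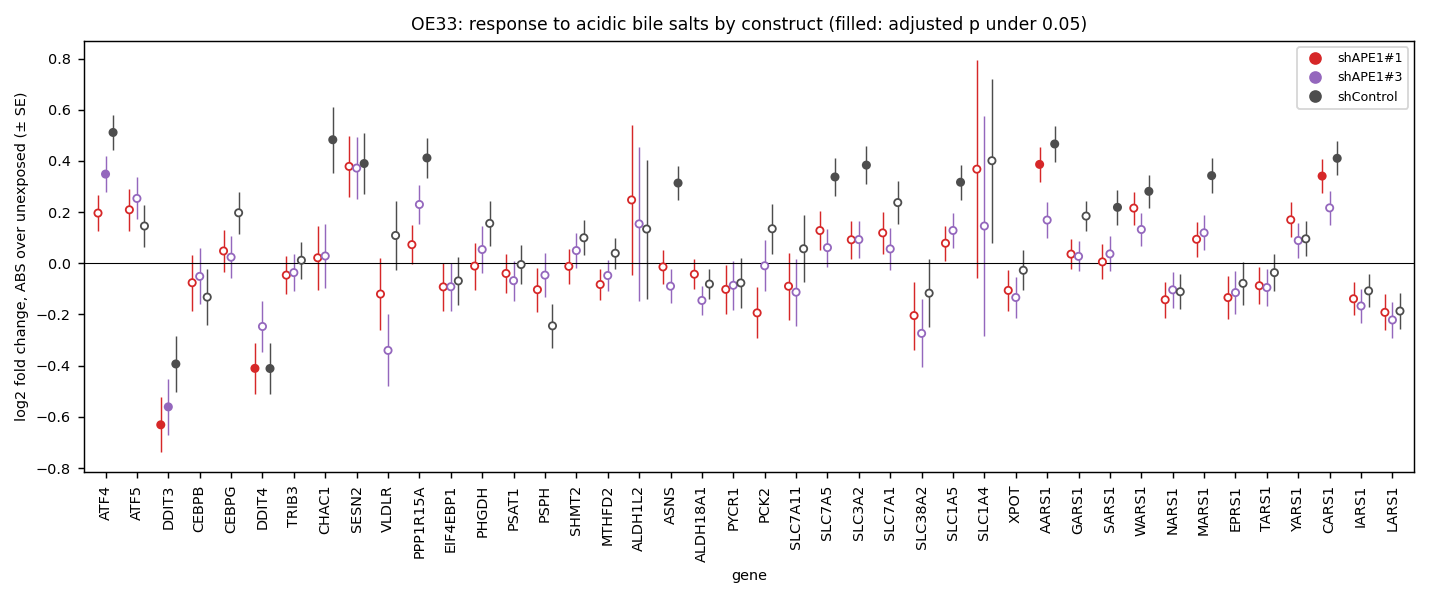
Log2 fold change of 42 genes after ABS over unexposed OE33 cells (y axis, ± SE) with shAPE1#1 (red), shAPE1#3 (purple) and shControl (grey), with genes on the x axis; filled points passed an adjusted p under 0.05. Filled grey points stand above 0 for 13 genes and below 0 for DDIT3 and DDIT4, and most of their red and purple partners are open.

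Genes with and without the promoter core were compared in the same response. In OE33 shControl cells 7 of the 14 genes with TGATGNAA rose, with a median log2 change of 0.32, while 6 of 20 tested genes with a window but no core rose and 2 fell, with a median of 0.07. Among genes outside the list, 17 of 282 with the core rose and 6 fell, 8.16% called in all, against 9.16% of genes outside the list without the core. In OE33 the interaction estimates were mostly negative with and without the core: for 14 of 14 with it and 16 of 20 without it with shAPE1#1, and for 13 of 14 with it and 17 of 20 without it with shAPE1#3. These estimates use the shControl libraries in which 7 of the 14 rose. In FLO1 none of the 14 was called after ABS in any construct, and 6 of 14 were lower with shAPE1#1 in unexposed cells, against 9 of 21 without the core.

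Knockdown in unexposed OE33 cells did not lower the list as a whole. With shAPE1#1 8 of 42 genes were higher and 2 lower than in shControl, against 16.4% of all genes called (8.24% higher and 8.13% lower). With shAPE1#3 10 were higher and 3 lower, against 21.7% (11.2% higher and 10.5% lower). The shAPE1#1 count was 6 without shControl replicate 1 or replicate 3. In a fit of only the groups compared it was 6, without ATF5, TRIB3, GARS1 and WARS1, and the shAPE1#3 count was 20. Many genes changed in these comparisons, and nothing particular to the 42 is read from the counts. PPP1R15A had 141, 151 and 129 CPM with shAPE1#1 and 128, 133 and 129 CPM with shAPE1#3, against 96.04, 90.6 and 89.5 CPM with shControl. CHAC1 had 7.71, 8.18 and 8.26 and 7.43, 8.23 and 8.58 CPM, against 6.41, 4.78 and 4.88 CPM. All knockdown libraries lay above the shControl libraries for both genes, with changes of 0.61 ± 0.08 and 0.50 ± 0.08 for PPP1R15A and 0.59 ± 0.13 and 0.60 ± 0.13 for CHAC1, each with an adjusted p of at most 0.00205 by edgeR.

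SLC7A5 had 556, 587 and 513 CPM with shAPE1#1 and 606, 598 and 644 CPM with shAPE1#3, against 445, 452 and 434 CPM (0.32 ± 0.07 and 0.47 ± 0.07). PHGDH had 17.2, 19.4 and 16.4 and 18.3, 16.6 and 16.8 CPM, against 27.2, 27.6 and 23.8 CPM, and was lower without overlap (-0.57 ± 0.09, adjusted p = 5.3e-05 and -0.61 ± 0.09 (adjusted p = 2.69e-05), edgeR with Benjamini-Hochberg adjustment). The other genes called higher with each shRNA were ATF5 (0.24 and 0.26) and the ligases GARS1 for glycine (0.20 and 0.30), SARS1 (0.27 and 0.22) and WARS1 (0.21 and 0.33). TRIB3 was called with shAPE1#1 (0.23; 0.20 with shAPE1#3). The cationic carrier SLC7A1, SLC1A5 and the isoleucine ligase IARS1 were called with shAPE1#3 (0.25, 0.38 and 0.19; 0.04, 0.17 and 0.12 with shAPE1#1). SLC1A4, which was near the floor of the data, had 0.106 to 0.575 and 0.296 to 0.542 CPM, against 0.969 to 1.59 CPM, and was called lower (-1.58 ± 0.38 and -1.42 ± 0.39). ATF4 was lower with shAPE1#3 (-0.34 ± 0.07, adjusted p = 0.00109, edgeR) and changed by -0.17 ± 0.07 (adjusted p = 0.105) with shAPE1#1. The epithelial markers summed to 18011 to 20288 CPM with shAPE1#1, 18542 to 19603 CPM with shAPE1#3 and 21537 to 24219 CPM with shControl, and their part in these differences was not tested.

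Among OE33 cells that had received ABS, more of the called genes were lower than higher with knockdown. Many genes outside the list changed as well, so nothing particular to the 42 is read from these counts. With shAPE1#1 2 of 42 genes were higher and 7 lower than in shControl, against 15.8% of all genes called (7.34% higher and 8.46% lower). With shAPE1#3 3 were higher and 9 lower, against 18.1% (8.75% higher and 9.31% lower). ATF4 had 261, 262 and 293 CPM with shAPE1#1 and 258, 285 and 266 CPM with shAPE1#3, against 412, 369 and 361 CPM with shControl, and every knockdown library was below every shControl library. Its changes were -0.48 ± 0.07 (adjusted p = 1.69e-05) and -0.50 ± 0.07 (adjusted p = 1.13e-05) by edgeR with Benjamini-Hochberg adjustment. PHGDH had 18.6, 16.1 and 17.8 and 16.97, 18.97 and 17.6 CPM, against 29.8, 29.7 and 27.99 CPM (-0.74 ± 0.09, adjusted p = 1.4e-06 and -0.71 ± 0.09 (adjusted p = 2.44e-06), edgeR). PCK2 had 26.4, 23.99 and 28.9 and 30.1, 28.3 and 27.6 CPM, against 38.6, 35.9 and 34.96 CPM (-0.46 ± 0.10 and -0.35 ± 0.10). VLDLR had 4.36, 4.97 and 5.42 and 5.58, 4.04 and 4.98 CPM, against 6.64, 6.39 and 7.22 CPM (-0.45 ± 0.14 and -0.48 ± 0.14). MTHFD2 (-0.21 and -0.22), ASNS (-0.23 and -0.32) and SLC1A4 (-1.61 and -1.67) were called lower as well, and ATF5 (0.31 and 0.37) and PPP1R15A (0.27 and 0.32) higher. With shAPE1#3 AARS1 (-0.25) and CARS1 (-0.19) were called lower and SLC1A5 (0.19) higher, where the shAPE1#1 changes were -0.17, -0.15 and -0.07. Without shAPE1#1 replicate 3 after ABS, the shAPE1#1 count was 5. Epithelial markers summed to 17773 to 20521 CPM with shAPE1#1, 19482 to 20744 CPM with shAPE1#3 and 22895 to 23444 CPM with shControl.

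In unexposed OE33 cells shAPE1#3 was also set against shAPE1#1. Of the 42 genes 0 were called by edgeR or DESeq2, against 0 of 15540 genes by edgeR, and 4 had an unadjusted p under 0.05, against 8.03% of all genes. The lowest adjusted p was that of SLC1A5, with 251, 259 and 257 CPM with shAPE1#3, against 219, 238 and 203 CPM with shAPE1#1 (0.22 ± 0.07, adjusted p = 0.366, edgeR). Whether the 2 OE33 groups carry different hairpins could not be decided from these data, so they may not be independent checks of each other.

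**Figure D4:**
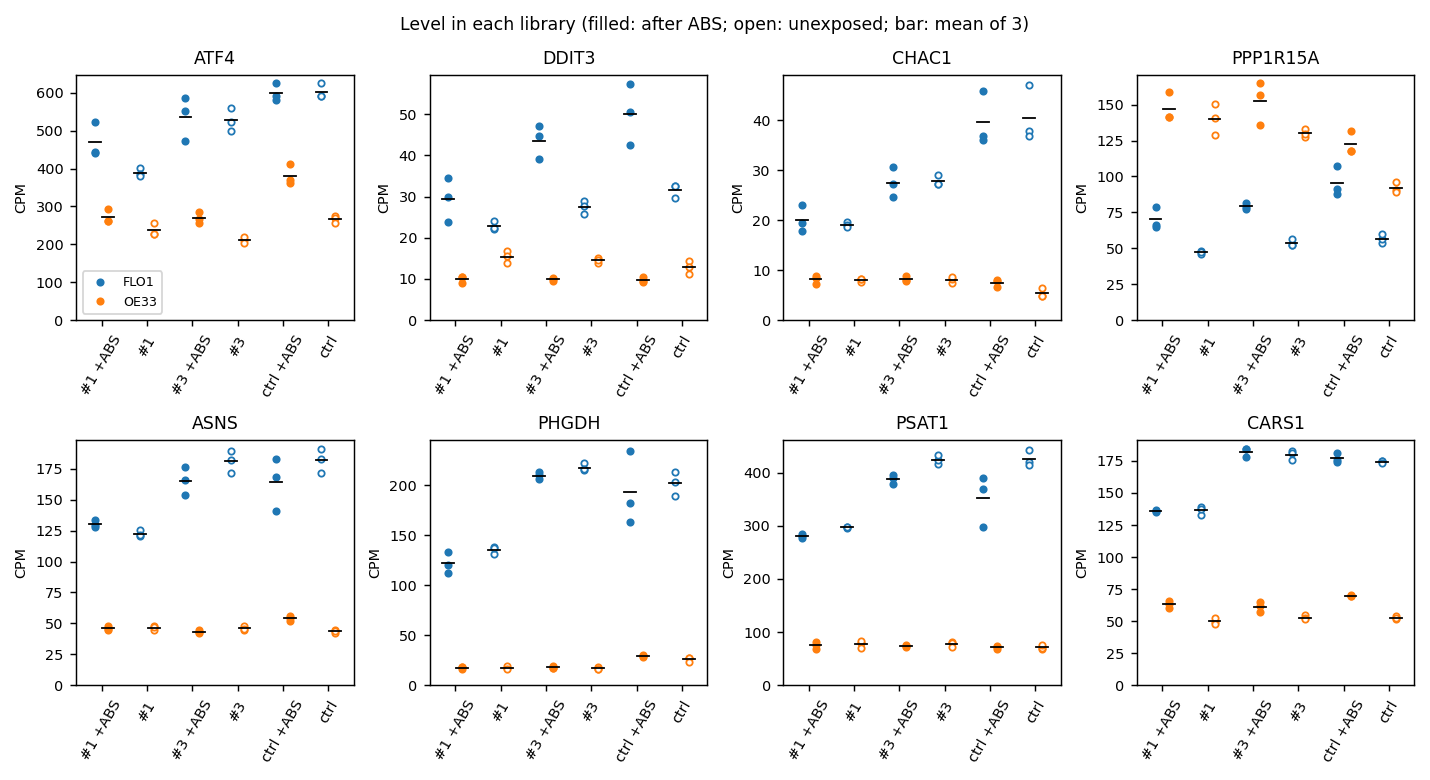
Level in CPM (y axes, from 0) of 8 genes in each library of FLO1 (blue) and OE33 (orange), by construct and exposure (x axes; #1 and #3 are shAPE1#1 and shAPE1#3, ctrl is shControl; filled points after ABS, open points unexposed, bars the mean of 3). In ATF4 the exposed OE33 shControl libraries (361 to 412 CPM) stand above every other OE33 group, and in PHGDH, PSAT1 and CARS1 the FLO1 shAPE1#1 groups stand below the other unexposed FLO1 groups.

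The levels of the best-known targets over all groups were as follows. CHAC1 in OE33 averaged 8.16 ± 0.884, against 8.05 ± 0.299 CPM unexposed, with shAPE1#1, 8.25 ± 0.553, against 8.08 ± 0.5898 CPM, with shAPE1#3 and 7.46 ± 0.679, against 5.36 ± 0.913 CPM, in shControl cells (SD, n = 3). The unexposed shControl group had the lowest mean of the 6 OE33 groups. TRIB3 in OE33 averaged 96.03 ± 5.97, against 99.2 ± 11.2 CPM, with shAPE1#1, 94.8 ± 1.95, against 97.2 ± 1.79 CPM, with shAPE1#3 and 85.4 ± 3.99, against 84.8 ± 2.88 CPM, in shControl cells. PSAT1 in OE33 averaged 75.3 ± 6.29, against 77.4 ± 7.25 CPM, with shAPE1#1, 74.2 ± 1.52, against 77.8 ± 4.62 CPM, with shAPE1#3 and 71.2 ± 3.503, against 71.5 ± 3.296 CPM, in shControl cells, and its group means spanned less than the SD of its most variable group. In FLO1 PSAT1 averaged 281 ± 3.28, against 297 ± 1.402 CPM, with shAPE1#1, 388 ± 9.098, against 424 ± 8.57 CPM, with shAPE1#3 and 352 ± 48.9, against 426 ± 15.1 CPM, in shControl cells. TRIB3 in FLO1 averaged 40.1 ± 1.74, against 43.95 ± 1.702 CPM, with shAPE1#1, 74.1 ± 3.38, against 62.1 ± 2.02 CPM, with shAPE1#3 and 76 ± 19.3, against 63.96 ± 7.51 CPM, in shControl cells. After ABS ASNS in FLO1 averaged 130.3 ± 3.19 CPM with shAPE1#1 and 165 ± 11.1 CPM with shAPE1#3, against 164 ± 21.3 CPM in shControl cells, and PHGDH averaged 122 ± 10.7 and 209.6 ± 3.53 CPM, against 193 ± 36.8 CPM. Among the exposed FLO1 shControl libraries, replicate 2 had the highest TRIB3, PHGDH and SHMT2 and the lowest ASNS and PSAT1 of the 3.

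Lists of neighbouring pathway genes were counted in the same fits. Of 11 further genes of cytosolic tRNA charging (8 ligase genes and AIMP1, AIMP2 and EEF1E1, scaffold proteins of the ligase complex), 0 were called after ABS in any FLO1 construct, in OE33 shControl cells or in OE33 with shAPE1#3. At an unadjusted p under 0.05, 1 passed in FLO1 and 6 in OE33 shControl cells. With shAPE1#1 in OE33 EEF1E1 fell after ABS (-0.44 ± 0.12). Of the ligases VARS1, for valine, was higher in OE33 with each shRNA (0.24 ± 0.07 and 0.34 ± 0.07, unexposed). Of 17 mitochondrial ligases, 3 fell after ABS in OE33 shControl cells (FARS2, -0.43, NARS2, -0.25, and EARS2, -0.24) and 0 rose. Of all genes, 2.51% were called lower and 5.89% higher there. The mitochondrial tryptophan ligase WARS2 was lower with shAPE1#1 in FLO1 (-0.53 ± 0.12) and with shAPE1#1 and shAPE1#3 in OE33 (-0.49 ± 0.10 and -0.58 ± 0.10), all unexposed. Of the folate and glycine enzymes, MTHFD1 was lower with shAPE1#3 in FLO1 (-1.11 ± 0.07) and was not called with shAPE1#1 (-0.08). Of the further amino acid carriers, SLC7A2, which imports arginine and lysine, was higher in OE33 (1.03 ± 0.10 and 1.06 ± 0.10) and SLC6A9, a glycine carrier, lower (-0.88 ± 0.12 and -0.60 ± 0.12). Each value in this paragraph given with an SE passed edgeR's test at an adjusted p under 0.05.

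The lines were compared directly in a fit of all 36 libraries. For the ABS response of shControl cells, 4 of 44 genes had a higher log2 change in OE33 than in FLO1 and 1 a lower one, against 1.73% of all genes (0.764% higher and 0.967% lower). Without FLO1 shControl replicate 2 after ABS the count was 13, and in a fit of only the groups compared it was 1, DDIT3. The 5 were ATF4, ASNS, CARS1 and GARS1, and DDIT3, which fell in OE33 and rose in FLO1. For the mean effect of both shRNAs in unexposed cells, 10 were higher and 1 lower in OE33 than in FLO1, against 6.37% of all genes (2.74% higher and 3.63% lower). The largest was CHAC1, at 1.39 ± 0.15 (adjusted p = 6.91e-08) by edgeR with Benjamini-Hochberg adjustment, which was higher with knockdown in OE33 and lower in FLO1. NUPR1 and STC2, near 0 in OE33, were in this fit and not called.

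**Figure D5:**
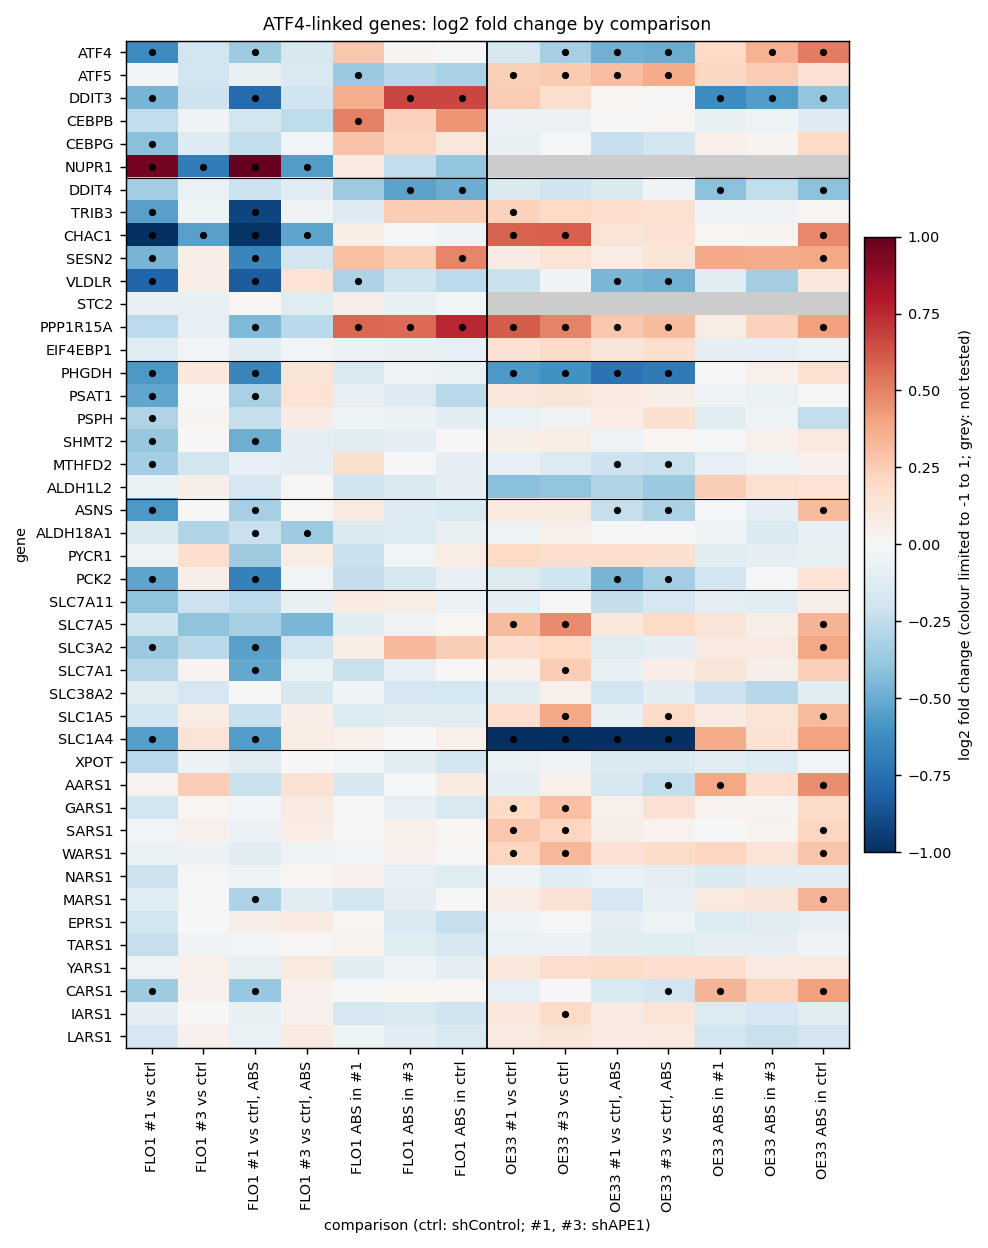
Log2 fold change (colour, limited to -1 to 1; grey, not tested) of the 44 genes (rows, grouped by role) in 14 comparisons (columns; ctrl is shControl, #1 and #3 are shAPE1#1 and shAPE1#3), FLO1 left and OE33 right of the line; dots mark an adjusted p under 0.05. Blue with dots fills the FLO1 shAPE1#1 columns in the upper rows, while in OE33 the densest red is in the ABS column of shControl cells.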

How the data were processed

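PolyA RNA-seq counts of 36 libraries (2 lines, 12 groups of 3) were analysed. Per the submitters' processing notes, Trimmomatic 0.36, STAR 2.5.2b, featureCounts and Subread 1.5.2 were used with build GRCh38. The annotation release, strand setting and treatment of reads with several matches were not stated in these sources. The deposited values are raw read counts per gene, 20.7 M to 40.7 M (M, 1e6) per library, and the authors applied no normalization to them. The labels do not say whether replicates were separate cultures, so p-values measure only the spread between these libraries. One FLO1 shAPE1#3 column after ABS (replicate 3) has an unusual name ending and was used as its name gives. No libraries were copies (chi-square per degree of freedom between replicates 2.41 to 69.66). The highest values, 69.66 and 39.09, belonged to the pairs with FLO1 shControl replicate 2 after ABS. The next highest was 23.76, for OE33 shAPE1#1 replicates 2 and 3 after ABS.

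Counts were fitted per line (18 libraries; 36 for differences between lines) with edgeR 4.0.16 in R 4.3.3 (TMM scaling, filterByExpr, robust quasi-likelihood test, Benjamini-Hochberg adjustment over all genes tested; threshold 0.05). Log2 fold changes are given ± SE. CPM uses the same TMM scaling. Genes were matched by symbol and placed with GENCODE release 29. Sequences are RefSeq's (GRCh38.p14). The members and lists were chosen with earlier results of these data known. All 44 genes could be named; per-library values are given for up to 4 called members with the largest change and a mean log2 CPM of at least 1. Alternatives were DESeq2 1.42.0, RLE scaling, no filter, only the groups compared, a replicate block and each library left out. The test was checked on simulated data.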

Additional observations from a re-analysis of the deposited data

Results flagged for a closer look

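The effects that differed between OE33 and FLO1 in the joint fit of both lines (edgeR, Benjamini-Hochberg adjusted p under 0.05) are given here as OE33 minus FLO1 differences of log2 changes.

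For the response of shControl cells to ABS, the difference was 0.51 ± 0.11 (adjusted p = 0.00942) for ATF4, 0.46 ± 0.10 (adjusted p = 0.0117) for ASNS, 0.38 ± 0.09 (adjusted p = 0.0125) for CARS1 and 0.33 ± 0.09 (adjusted p = 0.0453) for GARS1. ATF4 changed by 0.51 in OE33 and -0.01 in FLO1, and ASNS by 0.31 and -0.15. DDIT3, which fell in OE33 (-0.39) and rose in FLO1 (0.67), differed by -1.07 ± 0.16 (adjusted p = 6.55e-05). In a fit of only the groups compared, DDIT3 was the 1 gene called.

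For the mean effect of both shRNAs in unexposed cells, CHAC1 differed by 1.39 ± 0.15, adjusted p = 6.91e-08 and PPP1R15A by 0.70 ± 0.11, adjusted p = 1.87e-05 (edgeR). CHAC1 changed by 0.59 and 0.60 in OE33 and by -1.09 and -0.55 in FLO1 with shAPE1#1 and shAPE1#3. SLC7A5 differed by 0.68, DDIT3 by 0.53, SLC3A2 by 0.48, TRIB3 by 0.48, PSAT1 by 0.36, ASNS by 0.36, WARS1 by 0.32 and GARS1 by 0.31. SLC1A4, at most 1.59 CPM in unexposed OE33 cells, differed by -1.31. The lines were grown in different media, so line and medium cannot be told apart in any of these differences.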

How the results depend on the processing

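Of 149 calls on single genes, 75 held under every alternative and 0 changed sign. DESeq2 lost 0 of the 149 calls, RLE scaling 2, the replicate block 17, no filter on low counts 23 and a fit of only the groups compared 32. RLE scaling kept each comparison's count within 1.5 times.

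With DESeq2 the counts of called genes were 8 for ABS in FLO1 shControl, 7 with shAPE1#1 in FLO1, 7 with shAPE1#1 and 5 with shAPE1#3 in OE33, and 1 for the OE33 interaction with shAPE1#3. With only the groups compared they were, in FLO1, 1, 12 and 6 for ABS in shControl, shAPE1#1 and shAPE1#3, 5 for shAPE1#3 unexposed, 8 and 0 for shAPE1#1 and shAPE1#3 after ABS and 34 for shAPE1#3 against shAPE1#1. In OE33 they were 0 and 4 for ABS with shAPE1#1 and shAPE1#3 and 6 and 20 for shAPE1#1 and shAPE1#3 unexposed, and 1 for the ABS difference between lines. Without a filter they were 6 for OE33 shAPE1#1 unexposed and 3 for the ABS difference between lines. The causes were not tested.

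Leaving out each library gave, in FLO1, 2 to 7, 1 to 10 and 2 to 5 calls for ABS in shControl, shAPE1#1 and shAPE1#3, 11 to 26 and 1 to 6 for shAPE1#1 and shAPE1#3 unexposed, 15 to 24 and 0 to 6 after ABS and 12 to 24 for shAPE1#3 against shAPE1#1. In OE33 it gave 10 to 17, 3 to 6 and 1 to 3 for ABS, 6 to 10 and 9 to 16 unexposed, and 5 to 12 and 8 to 14 after ABS. Interactions and OE33 shAPE1#3 against shAPE1#1 stayed at 0 in each. The line differences had 4 to 13 (ABS) and 8 to 15 (knockdown).

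Same-numbered libraries did not deviate together (mean r -0.034 in FLO1 and -0.02 in OE33; 1 and 6 of 18 libraries correlated best with their own number), so the numbers do not pair them. With the replicate block the counts were 2 for ABS in FLO1 shAPE1#1, and 1 each for FLO1 shAPE1#3 unexposed and after ABS.

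Of the 44 genes, 4 overlap another gene with at least 10% of their mean count (DDIT3, ATF5, ALDH1L2 and SLC1A5), and the strand setting of the counting is unknown. SLC1A4 in OE33, at most 1.59 CPM unexposed, is limited by depth.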
